A study of Mus musculus with 30 samples.

Results

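The genes described here are 40 genes of cell division, 16 that act in S phase (replication genes) and 24 that act from late S phase to the end of mitosis (mitosis genes). They were chosen by name, as the probe sets whose platform annotation gives the symbol of 1 of them and no other. Such a probe set was found for 39 of the 40, that is for all 16 replication genes and for 23 of the 24 mitosis genes, out of 18193 genes on the arrays. Cyclin B1 (Ccnb1) had none and has no expression value here. The 39 genes have 89 probe sets, 27 of them have more than 1 and the most is 5, and a gene's values come from its brightest one, by mean log2 signal over all arrays. All values are MAS5 signals, the linear brightness that Affymetrix software summarises for a probe set, and each difference is on the log2(signal + 16) scale.

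Expression was measured on 30 mouse arrays, 22 of neurospheres, which are free-floating cultures of neural progenitor cells, and 8 of embryonic tissue. Every neurosphere line came from the ganglionic eminences of an E14.5 embryo of mixed Swiss and C57BL/6J background, lacked the tumour suppressor locus Ink4a/Arf, received EGFRvIII (a mutant, constantly active EGF receptor found in glioma) by retrovirus at passage 1 with puromycin selection, and grew in 20 ng/mL EGF and 20 ng/mL bFGF. The groups were Olig1/2-/- lines (null) with Olig2 virus (3 arrays), null lines with GFP virus (3), Olig1/2+/- lines (heterozygous) with Olig2 virus (2) and with GFP virus (2), and lines with neither virus, of which 6 were null, 3 heterozygous and 3 Olig1/2+/+ (wild type). Olig1 and Olig2 are transcription factors of the oligodendrocyte lineage that neural progenitors of the ventral brain also express. The lines with virus are null lines 12, 13 and 14 and heterozygous lines 11 and 15, each of which was profiled with Olig2 virus, with GFP virus and without either. The Olig2 or GFP virus was added at passage 3 with blasticidin, and cultures were harvested between passages 4 and 15, so that a virus, its selection and the time in culture cannot be told apart in a comparison with untransduced arrays. The tissue arrays hold spinal cord and forebrain of the same 4 embryos at E18.5, 2 null and 2 heterozygous, with neither culture nor EGFRvIII, and their labels name the genotype by Olig2 where the series design names Olig1/2.

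The groups were checked on genes outside the list. Id4, an inhibitor of basic helix-loop-helix factors, had signals of 2573.9 to 3406.8 in the 6 untransduced null arrays, against 64.4 to 202.2 in the 6 heterozygous and wild-type arrays, and lay at 490.7, 429 and 1169.8 in null lines with Olig2 virus, against 2671.5, 4344.7 and 4283 with GFP virus. The Olig2 probe set kept a signal in untransduced null neurospheres (6177.4 to 11577.1) and in null lines with Olig2 virus (4450.3, 5696.8 and 10011.4), and did not rise with Olig2 virus in null lines (log2 difference -0.53, adjusted p = 0.18), and its position relative to the deletion and to the viral insert is not given, so it checks neither. In spinal cord the same probe set had 58.5 and 23.8 in null embryos, against 335.1 and 736 in heterozygous ones. Hoxc6, a gene of the caudal neural tube, lay at 1665.8 to 1929.2 in spinal cord and at 390.3 to 489.5 in forebrain. Within groups, arrays correlated at 0.931 to 0.951, and array medians were 128.9 to 217.4. The GFP array of null line 13 had the lowest of these medians, the highest A260/A280 ratio (2.83, against 1.75 to 2.2 elsewhere) and the highest ratio of 3' to 5' Gapdh signal of any array (0.43 on the log2 scale), and results that change without it are given with and without it.

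A cell enters S phase when cyclin E and its kinase partner release E2F factors from the retinoblastoma proteins, and E2F then raises transcription of much of the replication machinery. Replication origins are licensed earlier in G1, when Cdc6 and Cdt1 load the MCM helicase, and geminin (Gmnn) blocks Cdt1 once S phase has begun. Mitosis genes are switched on later, many of them through promoters with a CHR element (cell cycle genes homology region) and CCAAT boxes, which the MuvB complex with B-Myb and Foxm1 and the factor NF-Y are known to use. In the embryonic brain these transcripts mark dividing progenitors and are lost as cells become neurons.

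The promoters printed here show the sequence words by which the 2 classes differ, in 4 replication genes and 4 mitosis genes. RefSeq promoters of GRCm38.p6, from 250 bases before to 50 bases after each start, were matched to 32 of the 40 genes and numbered 33, since Mcm7 has 2 starts. The E2F words searched were TTTCCCGC, TTTGGCGC, TTTCGCGC and TTTGCCGC on either strand, and they lay in 6 of 14 replication promoters (42.9%) and in 1 of 19 mitosis promoters (5.26%), with a share of 2.26% among all 32851 promoters of the table. The CHR words TTTGAA and TTCGAA, on either strand, lay in 2 of 14 replication promoters (14.3%) and in 14 of 19 mitosis promoters (73.7%), against 19.2% of all promoters. CCAAT lay in 9 of 14 replication promoters (64.3%) and in 16 of 19 mitosis promoters (84.2%), against 37.4% of all. A match describes letters and is not a binding site, and a promoter without one lacks these letters in this window only. E2f1, Ccne1, Tyms, Birc5, Mad2l1 and Nusap1 held none of the words. Each line below gives the 200 bases before the start, with E2F, CHR and CCAAT words in capitals, and in Mcm5 and Mcm6 overlapping E2F words of opposite strands form a longer run. The stretches are Cdc6 at chr11:98907951-98908150 (plus strand), Mcm5 at chr8:75109309-75109508 (plus), Mcm6 at chr1:128359706-128359905 (minus), Mcm7 at chr5:138171884-138172083 (minus, the first of its starts), Mki67 at chr7:135716380-135716579 (minus), Top2a at chr11:99024190-99024389 (minus), Cdk1 at chr10:69352913-69353112 (minus) and Ccnb2 at chr9:70421555-70421754 (minus).
Cdc6: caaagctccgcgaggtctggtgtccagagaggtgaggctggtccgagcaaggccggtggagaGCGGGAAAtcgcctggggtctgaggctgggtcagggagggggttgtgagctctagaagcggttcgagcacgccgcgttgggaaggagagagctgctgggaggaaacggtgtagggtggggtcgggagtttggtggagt
Mcm5: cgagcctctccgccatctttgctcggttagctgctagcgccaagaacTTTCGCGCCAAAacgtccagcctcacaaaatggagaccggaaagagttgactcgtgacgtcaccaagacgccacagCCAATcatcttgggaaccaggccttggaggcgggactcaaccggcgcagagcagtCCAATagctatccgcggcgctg
Mcm6: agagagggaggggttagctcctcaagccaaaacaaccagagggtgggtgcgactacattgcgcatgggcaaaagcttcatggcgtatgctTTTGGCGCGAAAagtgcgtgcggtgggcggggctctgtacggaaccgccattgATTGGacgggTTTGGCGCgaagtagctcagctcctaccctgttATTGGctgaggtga
Mcm7: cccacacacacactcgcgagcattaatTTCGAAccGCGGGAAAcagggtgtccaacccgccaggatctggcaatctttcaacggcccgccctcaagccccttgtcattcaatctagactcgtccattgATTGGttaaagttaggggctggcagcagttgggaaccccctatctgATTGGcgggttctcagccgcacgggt
Mki67: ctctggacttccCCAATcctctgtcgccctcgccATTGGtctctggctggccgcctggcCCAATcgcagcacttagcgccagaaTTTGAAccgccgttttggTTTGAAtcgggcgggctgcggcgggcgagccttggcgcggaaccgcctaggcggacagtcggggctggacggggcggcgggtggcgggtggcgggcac
Top2a: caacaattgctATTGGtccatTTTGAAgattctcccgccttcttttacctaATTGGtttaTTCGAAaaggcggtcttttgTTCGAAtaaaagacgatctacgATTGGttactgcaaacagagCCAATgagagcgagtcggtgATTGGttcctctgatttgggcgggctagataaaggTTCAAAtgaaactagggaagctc
Cdk1: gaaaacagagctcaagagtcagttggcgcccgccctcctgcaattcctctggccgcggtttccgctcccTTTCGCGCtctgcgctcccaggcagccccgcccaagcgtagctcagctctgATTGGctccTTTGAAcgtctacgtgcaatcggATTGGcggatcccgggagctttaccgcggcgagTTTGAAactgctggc
Ccnb2: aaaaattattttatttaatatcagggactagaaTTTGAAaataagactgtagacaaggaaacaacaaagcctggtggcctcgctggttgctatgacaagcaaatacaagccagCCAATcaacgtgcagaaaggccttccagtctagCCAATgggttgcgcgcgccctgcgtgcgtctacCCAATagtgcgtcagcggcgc
In the printed stretches, Cdc6, Mcm5 and Mcm6 hold E2F words and no CHR word, and Mki67, Top2a and Ccnb2 hold CHR words and no E2F word. Mcm7 and Cdk1 hold both kinds.

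In neurospheres without GFP or Olig2 virus, null lines differed little from Olig-expressing lines (heterozygous and wild type) in the genes of cell division. All 39 measured genes passed the filter on low signals, and 1 of them was called in limma at an adjusted p under 0.05, the mitotic cyclin Ccnb2, which was lower in null lines. No replication gene was called. Over all 12024 genes tested in this comparison 8.32% were called, 4.34% higher and 3.98% lower in null lines, so the share among the 39 genes was below the background. The median difference was -0.15 over the replication genes, 13 of 16 of them negative, and -0.19 over the mitosis genes, 20 of 23 of them negative, against -0.02 over all genes. In bulk cultures, fewer dividing cells and less RNA per dividing cell cannot be told apart.

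The heat map of the genes shows each neurosphere array, and the spread of lines within a group is as visible in it as any difference between groups. Among the 12 untransduced arrays, heterozygous line 26 was the highest for 9 of 16 replication genes and 8 of 23 mitosis genes. Null line 14 was the highest for 8 other mitosis genes, and null line 13 was the lowest for 12 mitosis genes and 5 replication genes. The mean of the replication genes, as a log2 difference from the mean of the 12 arrays, was -0.06 ± 0.14 in null lines (SD, n = 6), 0.07 ± 0.31 in heterozygous lines and 0.04 ± 0.31 in wild-type lines (SD, n = 3 each). That of the mitosis genes was -0.08 ± 0.20 in null lines, 0.06 ± 0.15 in heterozygous lines and 0.11 ± 0.11 in wild-type lines. These group means lie within the spread of the lines.

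**Figure D1:**
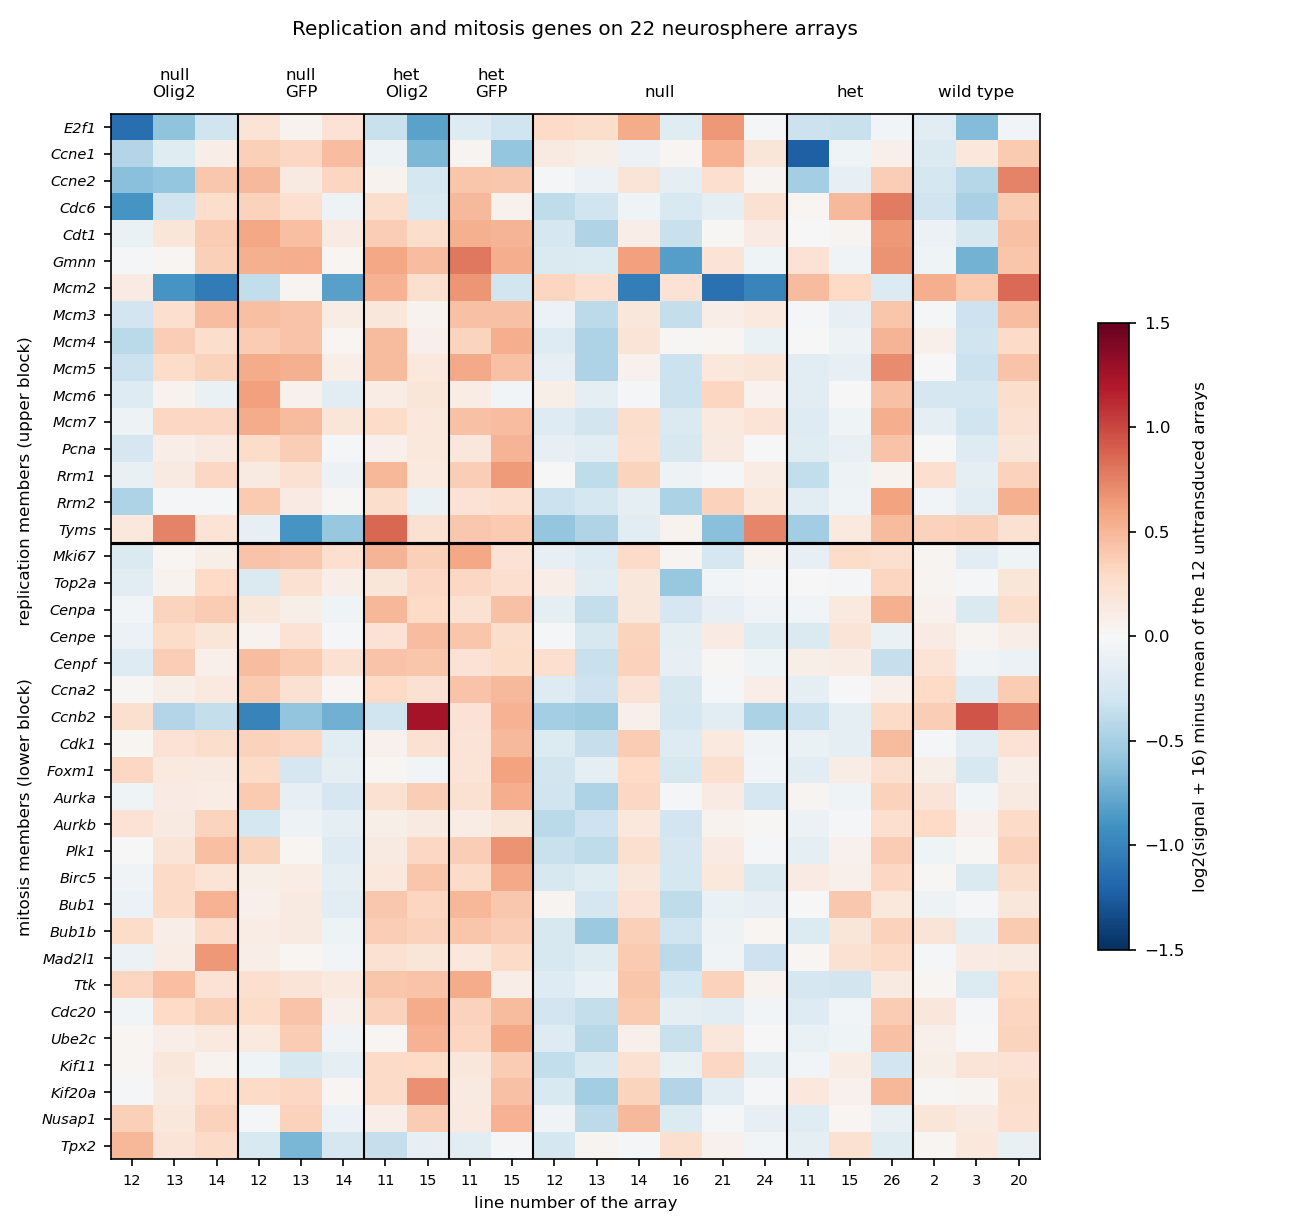
Heat map of the 39 genes (rows, replication above mitosis) in the 22 neurosphere arrays (columns by group), coloured by log2(signal + 16) minus the gene's mean over the 12 untransduced arrays, with the colour scale ending at 1.5 in either direction. Columns differ within groups, as in null lines 13 and 14, and Ccnb2 is low in the null lines with GFP virus.

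**Figure D2:**
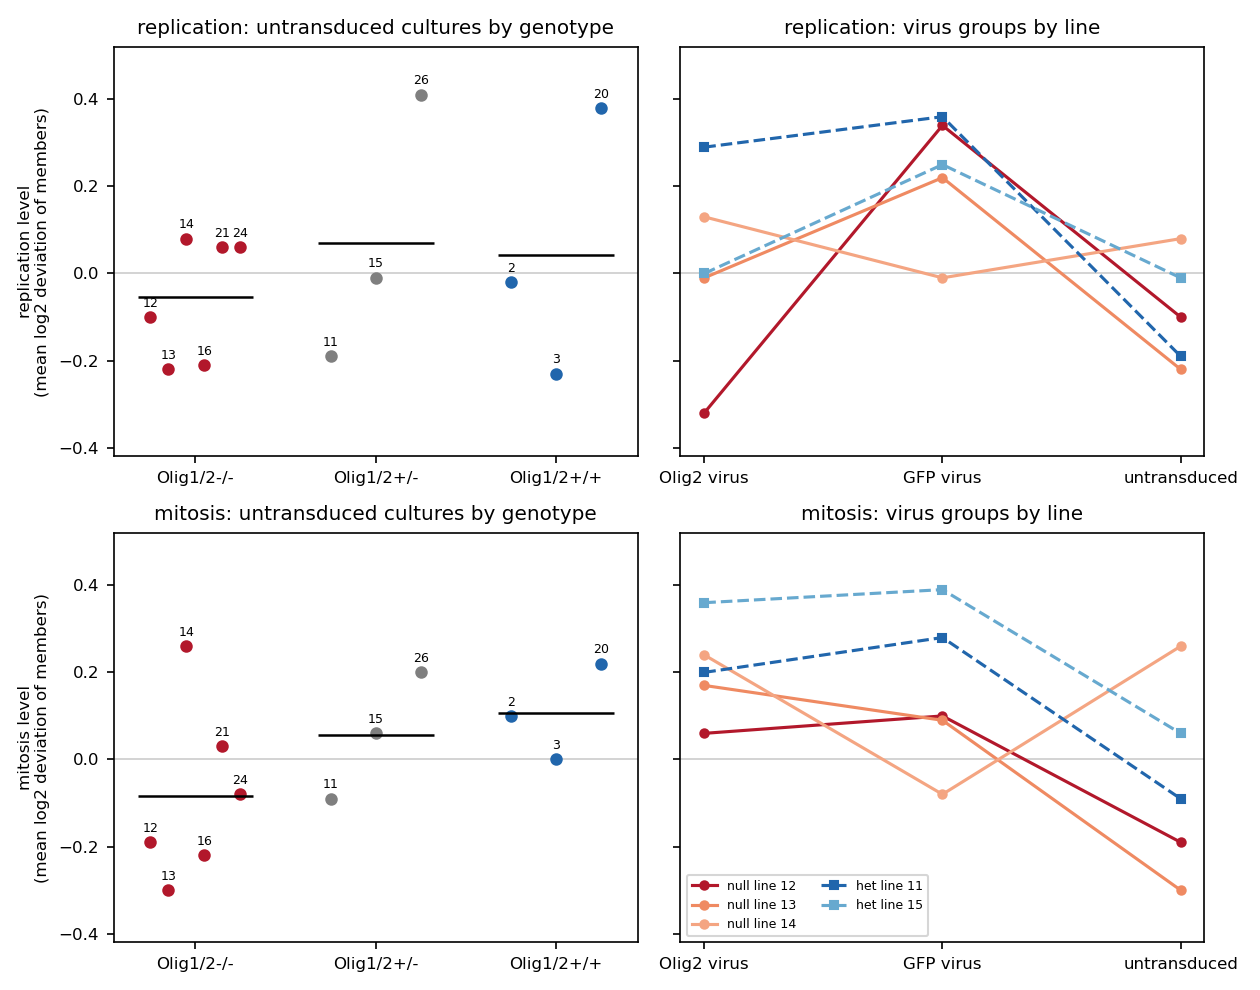
Mean of the 16 replication genes and of the 23 mitosis genes in each neurosphere array, as log2(signal + 16) minus the mean over the 12 untransduced arrays. Left panels give untransduced lines by genotype with a line at the group mean, and right panels join the Olig2, GFP and untransduced arrays of the same line. Genotypes overlap, and the GFP point of every line but null line 14 lies above its untransduced point in both classes.

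Ccnb2 encodes cyclin B2, a partner of Cdk1 in entry into mitosis. Its signal in untransduced null lines had a lowest value of 630.1, a median of 706.3 and a highest value of 970.9, against 730.9, 827 and 1118.2 in heterozygous lines and 1186.6, 1784.5 and 1538.2 in wild-type lines. Null and wild-type arrays did not overlap, null and heterozygous arrays did, and the heterozygous mean lay between those of the other groups. The log2 difference was -0.62 (SE 0.14, adjusted p = 0.016) against Olig-expressing lines and -0.99 (SE 0.18, adjusted p = 0.0032) against wild-type lines alone. Against heterozygous lines alone it was -0.25 (SE 0.18, adjusted p = 0.57) and not called. Heterozygous minus wild-type lines gave -0.75 (SE 0.20, adjusted p = 0.38) with no overlap of the arrays. Ccnb2 also had the widest range of the 39 genes over the 22 neurosphere arrays, 4.87-fold. The null call held in all 20 alternative settings, with adjusted p between 0.0068 and 0.041.

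The regulators of S-phase entry were positive in null lines where the other replication genes were negative, without a call. E2f1, the transcription factor that drives S-phase genes, had a lowest signal of 719.6, a median of 996.8 and a highest of 1299.1 in null lines, against 652.5, 648.5 and 801.1 in heterozygous and 728.7, 519.5 and 796.6 in wild-type lines. Null line 16 lay among the other genotypes, and the other null lines lay above them, line 24 (812.2) by the least. The difference of 0.52 (SE 0.15, adjusted p = 0.055) was not called, and it was called in 4 of 20 alternative settings. Ccne1 and Ccne2, the E cyclins, had differences of 0.29 and 0.07 (adjusted p = 0.45 and 0.88), and the other 13 replication genes were negative.

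Mcm2, a subunit of the replicative helicase, had the most negative replication difference, -0.78 (SE 0.27, adjusted p = 0.10), and its probe sets disagreed. On the probe set used, null lines 12, 13 and 16 had signals of 4278.3, 4074.3 and 3967.3, null lines 14, 21 and 24 had 1649.7, 1564.2 and 1711.9, heterozygous lines had 4755.2, 4198.7 and 2967.3, and wild-type lines had 4979.2, 4467.7 and 6148.7. The null lines thus fell into a high and a low trio on this probe set, and the high trio overlapped the heterozygous lines. On the other Mcm2 probe set the same null lines 12, 13 and 16 had 2431.7, 2003.6 and 2177.1, and lines 14, 21 and 24 had 3081.7, 3964.5 and 3388.5, against 2549.8, 2640.8 and 3468.2 in heterozygous and 2718.7, 2725.9 and 3938.6 in wild-type lines. The trio that was low on the first probe set was high on the second, where the null difference was -0.10 (adjusted p = 0.79).

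The usual markers of division were not called by genotype. Mki67, the gene of the Ki-67 antigen of cycling cells, had a lowest signal of 4695.2, a median of 5468.4 and a highest of 6867.8 in null lines, against 5134.8, 6793 and 6616.3 in heterozygous and 5755.3, 5007.2 and 5371.6 in wild-type lines, which overlap. Its difference was -0.06 (SE 0.10, adjusted p = 0.79). Top2a, topoisomerase II alpha, gave -0.17 (SE 0.12, adjusted p = 0.44), and Pcna, the sliding clamp of the replication fork, gave -0.04 (SE 0.12, adjusted p = 0.88). By role, all 6 MCM subunits (median -0.15) and the 3 licensing genes, Cdc6, Cdt1 and the Cdt1 inhibitor Gmnn (-0.27), were negative without a call. So were the 4 genes of the fork and of nucleotide supply (-0.14) and Aurka, Aurkb, Plk1 and Birc5 (-0.20). The 4 genes of the spindle checkpoint had a median of -0.23, with Ttk alone positive.

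Against wild-type lines alone, 6.7% of genes were called (3.86% higher, 2.84% lower), and again Ccnb2 and no other of the 39, while Mki67 gave 0.03, Top2a -0.16, Mcm2 -0.98 (adjusted p = 0.10), Pcna -0.02 and E2f1 0.54 (adjusted p = 0.11). Against heterozygous lines alone, 3.51% of genes (2.15% higher, 1.36% lower) and 0 of the 39 were called. At an unadjusted p under 0.05 stood 5 of the 39 and 1836 of all 12024 genes. In that comparison the smallest p of each class belonged to Cdc6, which loads the MCM helicase (-0.58, adjusted p = 0.20), E2f1 (0.49, adjusted p = 0.22), Kif20a, a kinesin of cytokinesis (-0.41, adjusted p = 0.27), and Cenpa, the histone of centromeres (-0.34, adjusted p = 0.29). Mki67 gave -0.16 (adjusted p = 0.62), Top2a -0.19 (0.60), Mcm2 -0.58 (0.45) and Pcna -0.07 (0.89). Between heterozygous and wild-type lines 0.0333% of genes (0.025% higher, 0.00832% lower) and 0 of the 39 were called. At an unadjusted p under 0.05 stood 2 of the 39 and 799 of all 12024 genes. There, beside Ccnb2, the smallest p values were those of Cdc6 (0.57, adjusted p = 0.73), Ccne1 (-0.52, adjusted p = 0.79) and Nusap1, a spindle microtubule protein (-0.28, adjusted p = 0.82), and Mki67, Top2a, Mcm2, Pcna and E2f1 gave 0.19, 0.03, -0.40, 0.05 and 0.05.

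Further replication and mitosis genes showed the same picture in null against Olig-expressing lines, where 8.32% of all genes were called. Of 38 further replication genes tested 2 fell, E2f8, a repressor of E2F targets (-0.66, adjusted p = 0.011), and Pole2, a subunit of DNA polymerase epsilon (-0.43, adjusted p = 0.031). None of 48 further mitosis genes was called, and 44 were negative with a median of -0.16. The 15 G1 cyclins, kinases and inhibitors held a larger share of calls than all genes. Cdk6, a partner of D cyclins, fell (-1.70, SE 0.30, adjusted p = 0.0026). Cdkn2b, an inhibitor of Cdk4 and Cdk6 (0.73, adjusted p = 0.014), and Ccnd2, a D cyclin (0.61, adjusted p = 0.02), rose.

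**Figure D3:**
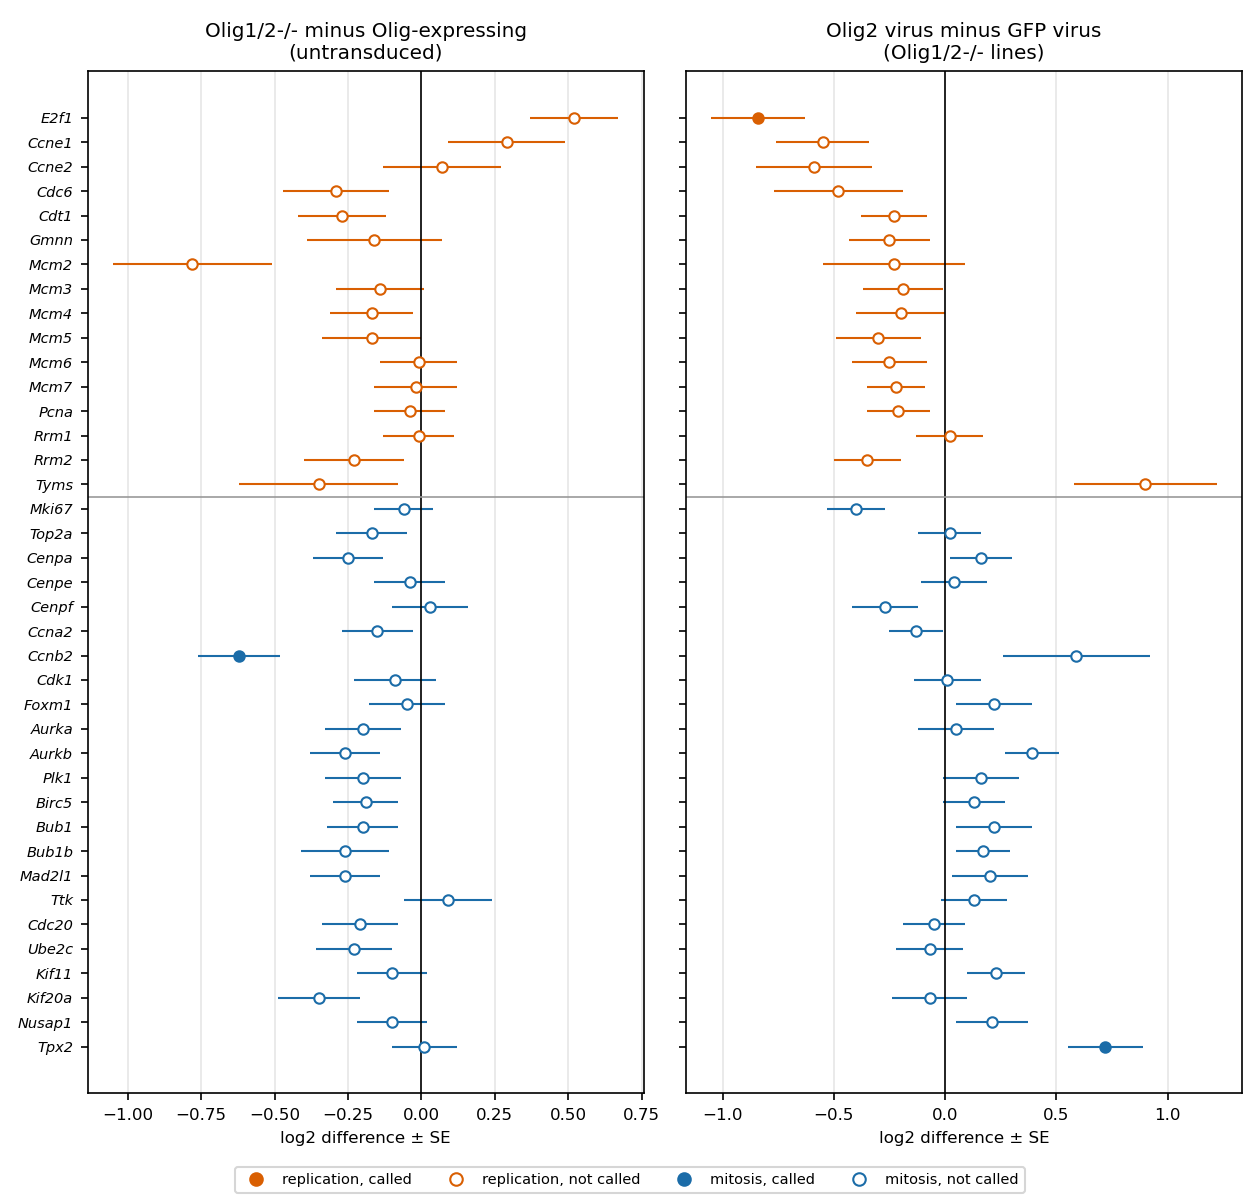
Log2 difference with its standard error for each of the 39 genes, for null minus Olig-expressing lines without virus and for Olig2 minus GFP virus in null lines, with filled points where the adjusted p was under 0.05. Most null differences lie just below 0 with Ccnb2 filled at -0.62, and with Olig2 virus E2f1 (-0.84) and Tpx2 (0.72) are filled.

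With Olig2 virus in null lines, set against GFP virus in the same lines, E2f1 fell, Tpx2 rose and the other 37 genes were not called. These are 2 calls among 39 genes, with 7.88% of 12458 genes called in this comparison, 3.24% higher and 4.64% lower, so the share among the 39 was below the background. The replication genes had a median of -0.24 with 14 of 16 negative, and the mitosis genes had a median of 0.13 with 17 of 23 positive, against 0.03 over all genes. Scaling arrays to their 75th percentile moved the median of all genes to -0.09, that of the replication genes to -0.36 and that of the mitosis genes to 0.01, and changed the calls over all genes to 304 higher and 1028 lower, against 404 and 578. Under both scalings the replication median lay below the mitosis median.

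E2f1 had signals of 365.9, 534 and 663.3 in null lines 12, 13 and 14 with Olig2 virus, against 951.4, 849.5 and 958.9 with GFP virus. The groups did not overlap, and the difference was -0.84 (SE 0.21, adjusted p = 0.035). The second E2f1 probe set had 247, 146.6 and 492.4 with Olig2 virus and 602.8, 406.1 and 321 with GFP virus, which overlap (-0.67, adjusted p = 0.28). Adjusted p for E2f1 lay between 0.012 and 0.17 over 21 alternative settings, with a call in 12 of them. The call was lost when any 1 of 7 of the 10 virus arrays was left out, the GFP array of line 13 among them (-0.89, adjusted p = 0.068). Against the untransduced arrays of the null lines it was also called (-1.05, adjusted p = 0.012).

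Tpx2, a microtubule protein that activates the kinase Aurora A, was called on 1 of its 4 probe sets. On the probe set used it had 1287.2, 1038.1 and 1106 in null lines 12, 13 and 14 with Olig2 virus, against 771.7, 556.6 and 756.3 with GFP virus, without overlap (0.72, SE 0.17, adjusted p = 0.025). The second probe set, an _x_at one that may bind related transcripts too, had 1141.2, 816.2 and 858.9 with Olig2 virus and 875.4, 553.4 and 703.1 with GFP virus, which overlap (0.40, adjusted p = 0.21). The remaining pair of probe sets gave -0.01 and -0.08 (adjusted p = 0.97 and 0.76), with 1135, 1237.1 and 1538.2 with Olig2 virus against 1280.6, 1502.7 and 1155.6 with GFP virus on the first of these. The probe sets also differ in how far neurospheres lie above tissue. Heterozygous neurospheres minus heterozygous tissue gave 2.40 and 1.96 on that remaining pair, 0.19 on the probe set used and 0.33 on the second. The Tpx2 call was lost without the GFP array of line 13 (0.57, adjusted p = 0.071) and without the Olig2 array of line 12 (0.63, adjusted p = 0.099) or of line 13 (0.78, adjusted p = 0.055), and against untransduced arrays (0.41, adjusted p = 0.18).

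**Figure D4:**
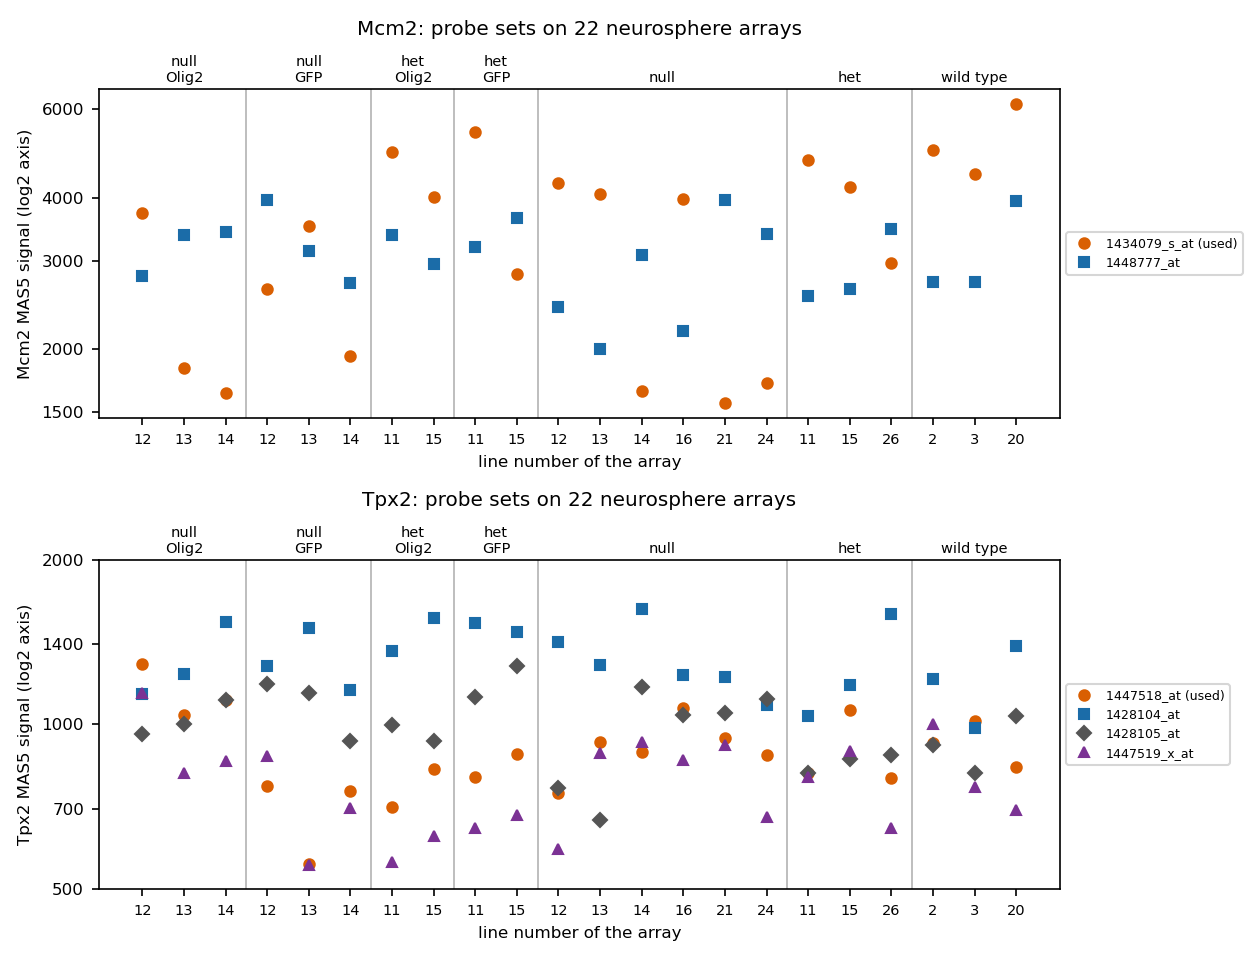
Signals (log2 axis) of each probe set of Mcm2 (2 probe sets) and Tpx2 (4 probe sets) in the 22 neurosphere arrays, by group. The null lines that are low on the first Mcm2 probe set are high on the second, and the Tpx2 probe sets differ in whether Olig2 lies above GFP virus in null lines.

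Mki67 had 4830.6, 5716 and 5946.8 in null lines with Olig2 virus, against 7548.7, 7455.8 and 6672.5 with GFP virus, and the groups did not overlap. The difference of -0.40 (SE 0.13, adjusted p = 0.08) was not called, although it was after scaling to the 75th percentile. Top2a had 4260.3, 4926.3 and 5841.9 with Olig2 virus, against 4092.1, 5598.1 and 5086.5 with GFP virus, which overlap (0.02, adjusted p = 0.93). When every probe set was tested and each gene taken from that of smallest p, Top2a was called higher, as were Ccna2, Cenpa and Kif11. Pcna gave -0.21 (SE 0.14, adjusted p = 0.38) and Mcm2 -0.23 (SE 0.32, adjusted p = 0.70).

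By role, these S-phase groups were negative with Olig2 virus in null lines: all 3 regulators of S-phase entry (median -0.59), all 6 MCM subunits (-0.22) and all 3 licensing genes, the inhibitor Gmnn among them (-0.25). Of these genes E2f1 alone was called. These signs hold for the probe sets used. Mcm3, a helicase subunit, gave -0.19 on the probe set used and 0.65 (adjusted p = 0.042) on another of its 5 probe sets, and it was called higher without _x_at and _s_at probe sets and with every probe set. Rrm1, a subunit of ribonucleotide reductase, gave 0.02 on the probe set used and 0.59 on another, and it was called higher with every probe set. The genes of the fork and nucleotide supply were split 2 to 2. All 4 spindle checkpoint genes (Bub1, Bub1b, Mad2l1 and Ttk, median 0.18) and all 4 of Aurka, Aurkb, Plk1 and Birc5 (0.14) were positive without a call. The other mitosis roles were mixed. Cdc20 and Ube2c, which act at the exit from mitosis, were both negative (median -0.06), and Mki67 and Top2a had a median of -0.19. The kinetochore genes Cenpa, Cenpe and Cenpf had 0.04, with Cenpf at -0.27. The mitotic cyclins with Cdk1 and Foxm1 had 0.12, and the spindle motors and binding proteins, Tpx2 among them, 0.22. Ccnb2 had 1087, 672.3 and 714.4 with Olig2 virus, against 450.8, 601.4 and 550 with GFP virus, without overlap, and its difference of 0.59 was not called (adjusted p = 0.29).

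Further genes of these lists were called in the same comparison. Of 49 further mitosis genes 4 rose and 1 fell, where 3.24% of all genes were called higher and 4.64% lower. The gene that fell was Smc2, a condensin subunit (-0.51, adjusted p = 0.044), and those that rose were Nek2, a centrosome kinase (0.99, adjusted p = 0.019), Racgap1, a cytokinesis regulator (0.89, adjusted p = 0.022), Aspm, a spindle pole protein (0.53, adjusted p = 0.033), and Cdca3 (0.51, adjusted p = 0.036). Of 38 further replication genes Pole2 rose (0.71, adjusted p = 0.028) and Slbp, the histone mRNA binding protein, fell (-0.52, adjusted p = 0.04). Among the G1 genes Ccnd1, cyclin D1, fell (-1.04, SE 0.12, adjusted p = 0.0011), as did the inhibitor Cdkn1a (-0.81, adjusted p = 0.02) and the kinase Cdk2 (-0.50, adjusted p = 0.035), while Cdk6 rose (1.17, adjusted p = 0.039). Other measures moved with the virus. The log2 ratio of 3' to 5' Gapdh signal was -0.20, -0.20 and -0.25 in null lines with Olig2 virus, against -0.09, 0.43 and -0.04 with GFP virus, and with this ratio as a covariate limma called 0 of the 39 genes and 227 of all genes, against 982 without it. The 7 microglial markers summed to 868 to 1149 with Olig2 virus and 522 to 630 with GFP virus, with none of the 2 tested called, and 2 of 6 tested progenitor markers were called higher. The part of these measures in the E2f1 and Tpx2 differences was not tested further.

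The lines differed in their Olig2 minus GFP values. Olig2 minus GFP virus, averaged over the replication genes, was -0.65 in null line 12, -0.23 in null line 13 and 0.14 in null line 14, with 2, 1 and 12 of the 16 genes higher. Averaged over the mitosis genes it was -0.05 in line 12, 0.08 in line 13 and 0.32 in line 14, with 9, 13 and 21 of the 23 genes higher. Line 14 had the highest value in both classes, and in all 3 lines the replication mean lay below the mitosis mean.

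In heterozygous lines Olig2 virus gave 0 calls among the 39 genes and 0 among all genes (0% called), with 484 genes and none of the 39 at an unadjusted p under 0.05. The replication genes had a median of -0.18 with 13 of 16 negative, and the mitosis genes had a median of -0.04. Mki67 had 7973.9 and 7208.1 with Olig2 virus, against 8429.1 and 6499.6 with GFP virus (0.03), and E2f1 had 646.7 and 464.3, against 718 and 665.1 (-0.33, SE 0.26). Top2a gave -0.04, Mcm2 0.19, Pcna -0.23, and the smallest p of each class were those of Ccne2 (-0.51), Mcm3 (-0.32), Foxm1, the transcription factor of G2 genes (-0.41), and Plk1, polo-like kinase (-0.30), each with an adjusted p of 1. By line, the replication mean was -0.07 in line 11 and -0.25 in line 15, and the mitosis mean was -0.08 and -0.03.

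The Olig2 effect was compared between genotypes by the interaction, null minus heterozygous lines. None of the 39 genes was called, with 0.0562% of all genes called (0.0241% higher, 0.0321% lower). At an unadjusted p under 0.05 the interaction held 2 of the 39 and 1335 of all 12458 genes. Its values were 0.85 for Tpx2 (SE 0.26, adjusted p = 0.30), 0.64 for Foxm1 (adjusted p = 0.42), 0.75 for Tyms, thymidylate synthase (adjusted p = 0.60), -0.51 for E2f1 (SE 0.33, adjusted p = 0.60), -0.43 for Mki67 (adjusted p = 0.47), 0.06 for Top2a, -0.41 for Mcm2 and 0.01 for Pcna. For E2f1 and Tpx2 a difference between the genotypes was thus not shown.

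Null lines with GFP virus, set against heterozygous lines with GFP virus, had negative differences for most mitosis genes. The mitosis median was -0.27 with 22 of 23 negative, and the replication median was -0.11 with 13 of 16 negative, against -0.03 over all genes. Of these mitosis genes 8 stood at an unadjusted p under 0.05, as did 1854 of all 12458 genes. None of the 39 was called, with 1.7% of all genes called (1.16% higher, 0.546% lower). Ccnb2 had 450.8, 601.4 and 550 in null lines, against 1070.1 and 1328.2 in heterozygous lines, without overlap (-1.14, SE 0.37, adjusted p = 0.16). Kif11, the kinesin that pushes spindle poles apart, gave -0.43 (adjusted p = 0.17), Tyms -0.93 (adjusted p = 0.24), Ccne1 0.64 (adjusted p = 0.22), E2f1 0.40 (adjusted p = 0.46), Top2a -0.24 (adjusted p = 0.52), Mcm2 -0.57 (adjusted p = 0.50), Pcna -0.14 and Mki67 -0.04. Of the further mitosis genes Nek2 fell (-1.21, SE 0.24, adjusted p = 0.028). These null GFP arrays are also the arrays that Olig2 virus was set against. Their log2 ratios of 3' to 5' Gapdh signal were -0.09, 0.43 and -0.04, against -0.14 and -0.24 in the heterozygous GFP arrays. With this ratio as a covariate limma called 90 of all genes and 0 of the 39, against 212 of all genes without it. The part of this ratio in the negative differences was not tested further.

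Cultures with GFP virus had positive differences for most replication and mitosis genes against untransduced cultures of the same 5 lines, without a call for any single gene. The replication median was 0.40 with 14 of 16 positive, and the mitosis median was 0.23 with 22 of 23 positive, against 0.01 over all genes. At an unadjusted p under 0.05 stood 10 replication genes, 7 mitosis genes and 1566 of all 12428 genes. Limma called 0.0241% of all genes and none of the 39. Of the further genes 37 of 38 replication genes and 44 of 48 mitosis genes were positive, with medians of 0.31 and 0.26 and no call.

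Mcm5, a helicase subunit, had the smallest p. It had 4922.1, 4829.1 and 3582 with GFP virus in null lines 12, 13 and 14 and 4930.7 and 4511.7 in heterozygous lines 11 and 15, against 3051.8, 2404.1 and 3478.1 and 2987.2 and 3065.3 in the same lines untransduced. The 5 GFP arrays lay above the 5 untransduced ones, line 14 by the least (0.61, SE 0.12, adjusted p = 0.17). Mcm7, another helicase subunit, gave 0.53 (SE 0.12, adjusted p = 0.18), Ube2c, the ubiquitin-conjugating enzyme of the anaphase-promoting complex, 0.43 (adjusted p = 0.23), and Ccna2, cyclin A2, 0.42 (adjusted p = 0.23). Mki67 and Pcna gave 0.35 each (adjusted p = 0.29 and 0.26), Top2a 0.15, Mcm2 -0.21 and E2f1 -0.06.

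Line 14 stood apart. GFP minus untransduced, averaged over the mitosis genes, was 0.30, 0.39 and -0.34 in null lines 12, 13 and 14 and 0.37 and 0.33 in heterozygous lines 11 and 15, and in line 14 all 23 mitosis genes were lower with GFP virus. Over the replication genes it was 0.44, 0.44 and -0.09 in null lines and 0.56 and 0.26 in heterozygous lines. The untransduced array of line 14 is the one with the highest mitosis genes among null lines. Set against untransduced arrays of the same null lines in place of GFP arrays, Olig2 virus gave a replication median of 0.06 and a mitosis median of 0.23, against -0.24 and 0.13 with GFP arrays as the control. Passage at harvest could not be entered, since the labels do not give it by array, and its part was not tested.

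Spinal cord lay below forebrain for most of the genes at E18.5. After the filter on low signals 32 of the 39 genes were tested, and Ccne2, Cdc6, E2f1, Tyms, Bub1, Bub1b and Kif20a were not. Of 12 replication genes 5 fell and 1 rose in spinal cord, and of 20 mitosis genes 2 fell. On the probe sets used, all 20 mitosis genes were negative with a median of -0.32, and the replication median was -0.30. The comparison called 40% of 12342 genes, 21.3% higher and 18.7% lower, so the 8 calls among 32 genes are a smaller share than the background.

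The replication genes that fell in spinal cord belong to the fork, nucleotide supply and the helicase, and the mitosis genes that fell were Mki67 and Top2a. Mcm7 had 2207.2 and 1959.9 in null and 1900.6 and 1935.2 in heterozygous spinal cord, against 4074.5 and 4021.8 in null and 3938.8 and 4029.6 in heterozygous forebrain (-1.0, SE 0.07, adjusted p = 7.4e-07). Pcna had 2613.8, 2221.4, 2254.7 and 2289.3 in spinal cord, against 4223.2, 4034.8, 3296 and 2998.4 in forebrain (-0.62, SE 0.07, adjusted p = 5.4e-05). Neither gene overlapped between the tissues. Rrm2, the regulated subunit of ribonucleotide reductase, fell (-0.86, adjusted p = 8e-05), as did its partner Rrm1 (-0.39, adjusted p = 0.018) and Mcm6 (-0.45, adjusted p = 0.031), of which Rrm1 lost its call without 1 of 3 arrays and Mcm6 without 1 of 7 arrays (adjusted p up to 0.068 and 0.092). Mki67 had 555.8, 545.1, 498.9 and 562.5 in spinal cord, against 798.8, 985, 772.8 and 693.3 in forebrain (-0.56, SE 0.11, adjusted p = 0.0024), and Top2a fell by 0.45 on the log2 scale (SE 0.10, adjusted p = 0.0042). Mcm2 gave -0.29 (adjusted p = 0.28) on the probe set used and -0.54 (adjusted p = 0.023) on its other one. Lower values in spinal cord were also found on other probe sets of Mcm3 (-0.68, adjusted p = 0.044), Ccna2 (-0.85, adjusted p = 0.00035) and Cdc20 (-0.57, adjusted p = 0.014). The probe sets used for these 3 genes were not called. Other probe sets of Mcm4 (0.37), Mcm6 (0.30), Top2a (0.23), Tpx2 (0.22) and Cenpa (0.05) were positive, none at an adjusted p under 0.05.

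Ccne1, cyclin E1, went against its class. It had 680.8 and 693.2 in null and 750 and 764.8 in heterozygous spinal cord, against 251.2 and 337.8 in null and 318.9 and 272.9 in heterozygous forebrain, with no overlap (1.25, SE 0.14, adjusted p = 3.4e-05). Cdt1 and Gmnn were also positive without a call (0.20 and 0.43). Among the other lists, Cit, citron kinase (1.30, adjusted p = 2e-06), and Cdkn1a (1.15, adjusted p = 7e-06) and Cdkn1c (1.04, adjusted p = 5.3e-06), which are inhibitors of cyclin-dependent kinases, rose in spinal cord. Ncapd2, a condensin subunit (-0.98, adjusted p = 2.7e-05), Orc6 (-0.82, adjusted p = 0.00086), Cdk4 (-1.11, adjusted p = 3.5e-06) and Ccnd2 (-1.18, adjusted p = 4.7e-06) fell.

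Markers of other cells moved with the tissue as well. The summed signal of 10 vascular and meningeal markers was 18521 to 31765 in spinal cord and 4719 to 5908 in forebrain, with 7 of 10 genes called higher, and that of 7 microglial markers was 5115 to 7623 in spinal cord and 2060 to 2687 in forebrain, with 6 of 6 tested genes called higher. The 7 progenitor markers summed to 33654 to 39239 in spinal cord and 27765 to 29681 in forebrain but were split, with Fabp7 (0.37), Vim (0.64) and Prom1 (0.58) called higher and Nes (-0.91), Pax6 (-1.14) and Sox2 (-0.44) called lower in spinal cord. The 8 neuronal markers summed to 67334 to 82558 in spinal cord and 60879 to 63797 in forebrain and were split too, with Nefm, Nefl, Snap25 and Rbfox3 called higher and Tubb3 (-0.75), Map2 (-0.28) and Stmn2 (-0.18) called lower. The log2 ratio of 3' to 5' Gapdh signal was 0.04 to 0.37 in spinal cord and -0.22 to -0.07 in forebrain. The part of these differences in the lower replication and mitosis genes was not tested.

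No gene of the 32 was called by genotype in tissue. In spinal cord 0.13% of genes (0.0567% higher, 0.0729% lower) and in forebrain 0.0405% of genes (0.0324% higher, 0.0081% lower) were called between null and heterozygous embryos, and none of the 32 in either. At an unadjusted p under 0.05 stood 4 of the 32 in each tissue, with 742 of all 12342 genes in spinal cord and 782 in forebrain. The replication median was 0.13 in spinal cord and 0.22 in forebrain, and the mitosis median 0.06 and 0.12. In forebrain Pcna had 4223.2 and 4034.8 in null embryos, against 3296 and 2998.4 in heterozygous ones (0.39, SE 0.10, adjusted p = 0.54). These values did not overlap, but with 2 arrays against 2 neither did those of most other replication genes tested there. Mcm2 gave 0.75 (adjusted p = 0.71), Mad2l1, a spindle checkpoint protein, 0.85 (adjusted p = 0.69), Plk1 0.81 (adjusted p = 0.71), Mki67 0.27 and Top2a 0.21. In spinal cord Mcm2 gave 0.81 (SE 0.28, adjusted p = 0.62), Rrm1 0.43 (adjusted p = 0.70), Aurka 1.30 (adjusted p = 0.78) and Cenpe, a kinetochore kinesin, 0.84 (adjusted p = 0.79), while Mki67, Top2a and Pcna gave 0.05, 0.07 and 0.08. On their other probe sets Mcm2 gave 0.21 and Rrm1 -0.07 in spinal cord, and Mcm2 gave 0.84 and Rrm1 0.26 in forebrain. The Aurka value rests on a signal of 38.4 in 1 heterozygous spinal cord, against 230.8 in the other. The difference of the genotype values between the tissues was not called in limma for any of the 32 genes (0% of all genes called, 2 of the 32 and 705 of all genes at an unadjusted p under 0.05), with Cenpe at 1.41, Plk1 at -1.15, Mcm6 at -0.49, Pcna at -0.31, Mki67 at -0.22, Top2a at -0.14 and Mcm2 at 0.07.

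Heterozygous neurospheres against heterozygous tissue give the scale of these values, although culture, EGFRvIII, Ink4a/Arf, age and region all differ between them and cannot be told apart. Of the 39 genes 15 replication and 22 mitosis genes rose and none fell, with 57.2% of 13672 genes called, 29.5% higher and 27.8% lower. The medians were 2.37 for replication and 2.82 for mitosis genes, against -0.02 over all genes. Mki67 had 5134.8, 6793 and 6616.3 in neurospheres, against 498.9 and 562.5 in spinal cord and 772.8 and 693.3 in forebrain (3.27, SE 0.13, adjusted p = 4e-13), 9.63-fold higher. Cenpa had 2922.3, 3326.6 and 4377 in neurospheres, against 240.3 and 302.8 in spinal cord and 265.7 and 353.1 in forebrain (3.53, SE 0.17, adjusted p = 2.9e-12). Neurospheres lay above every tissue array for both genes.

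The 7 genes kept out of the tissue tests for low signal passed here through the neurospheres, where they are high. Their direction is thus not independent of the filter, and all of them but Tyms are among the genes counted as risen. The size of their differences, and of the medians that hold them, depends on tissue signals near background. Bub1b, a spindle checkpoint kinase, had 975.4, 1279.7 and 1425.1 in neurospheres, against 47.4 and 26.5 in spinal cord and 53.6 and 61.2 in forebrain, all below the medians of those tissue arrays. Among roles without such genes, the median was 3.04 for Mki67 and Top2a and 2.88 for the mitotic kinases with Birc5. It was 2.82 for Cdc20 and Ube2c, which act at the exit from mitosis, and 2.58 for the MCM subunits. On the probe sets used, the median was lower for the mitotic cyclins with Cdk1 and Foxm1 (1.72) and for the kinetochore genes Cenpa, Cenpe and Cenpf (1.63). The value of 1.72 depends on the Foxm1 probe set, since Foxm1 at 0.78 is the lowest of its 4 genes and another probe set gave 4.30. Mcm3 gave 3.37 (10.3-fold), Top2a 2.82, Mcm2 2.87, Pcna 2.37 (5.18-fold), Rrm2 2.95, Rrm1 2.22, Mcm6 2.40, Cdt1 2.70, E2f1 1.72, Birc5, which holds back apoptosis and serves in the chromosomal passenger complex, 2.94, Ube2c 3.07 and Mad2l1 3.31. Ccne1 gave 0.60. Tyms (1.04, adjusted p = 0.053) and Tpx2 (0.19, adjusted p = 0.26) were not called. The Tpx2 probe sets differ as given above, and a further probe set annotated to Tyms together with Tyms-ps had 593.2 to 1296.5 in neurospheres and 212 to 371.3 in tissue. For Foxm1 the value also depends on the probe set, at 0.78 on the one used and 4.30 on another of its probe sets. Of the further genes 32 of 38 replication and 47 of 48 mitosis genes rose, and 12 of 15 G1 genes rose. All 8 neuronal markers fell, and their sum was 6354 to 10528 in untransduced neurospheres and 60879 to 82558 in tissue.

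**Figure D5:**
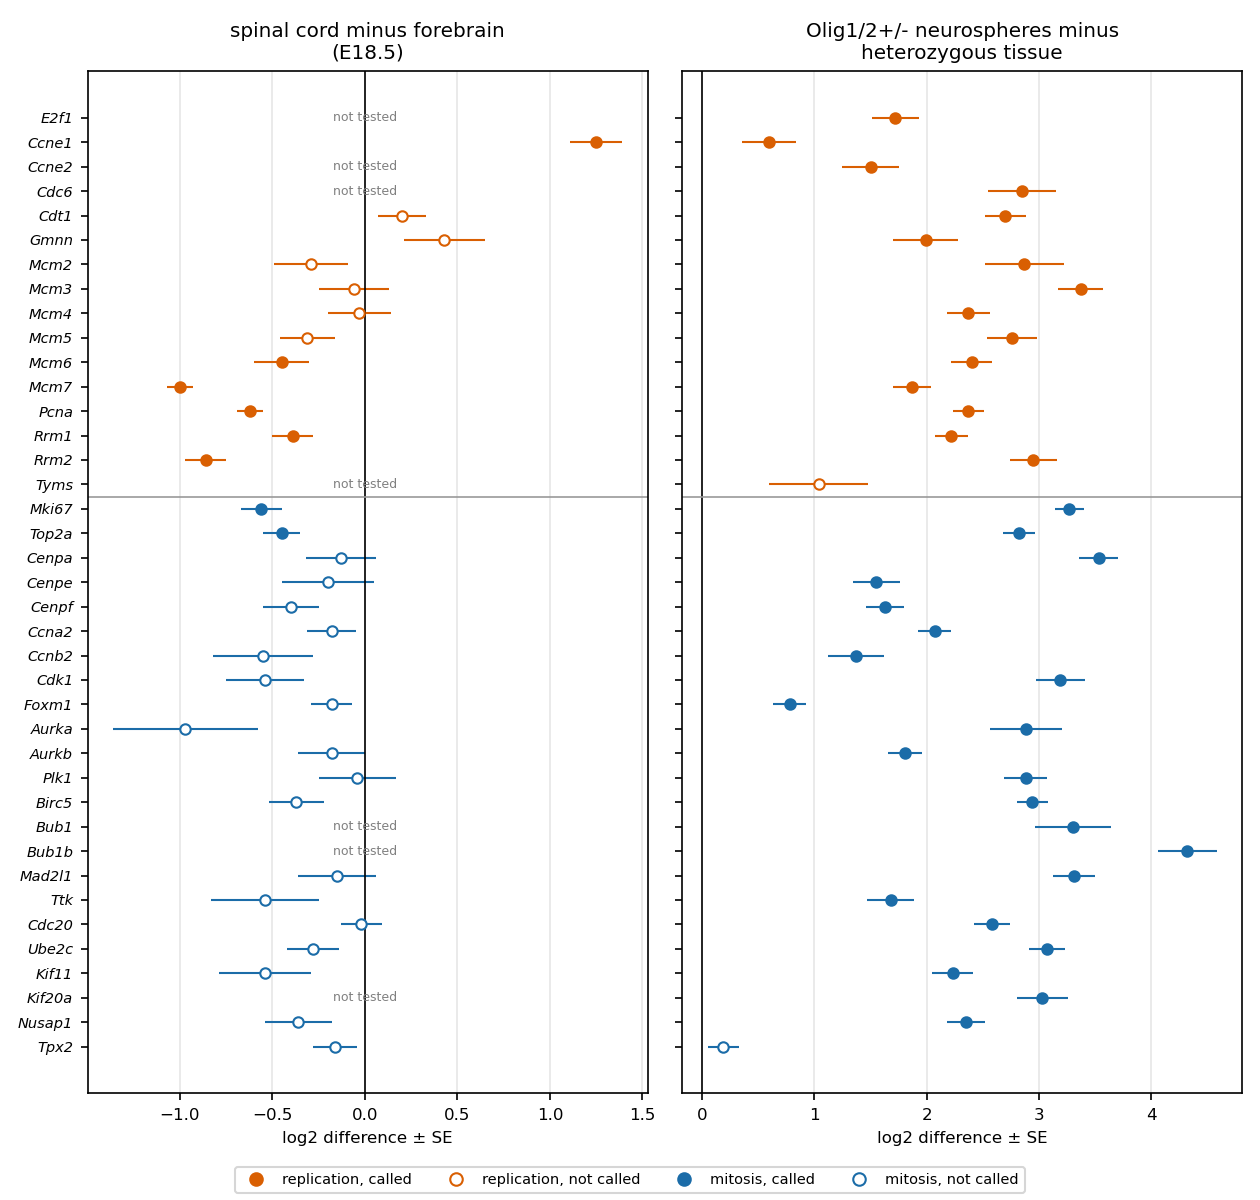
Log2 difference with its standard error for the genes tested, for spinal cord minus forebrain (32 genes) and for heterozygous neurospheres minus heterozygous tissue (39 genes), with filled points where the adjusted p was under 0.05. In spinal cord Mcm7 (-1.0) and Ccne1 (1.25) lie at the ends of the scale, and all genes lie above 0 for neurospheres.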

How the data were processed

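RNA of 22 neurosphere cultures and 8 embryonic tissue samples was measured on 30 arrays of 45101 probe sets. The deposited values are MAS5 signal intensities, linear and scaled by the authors so that the trimmed mean of each array (2% off each end) is 500, as the values themselves show. Platform annotation gave 34945 probe sets 1 gene symbol, 932 several and 9211 none, and probe sets with several or none, and 64 control probe sets, were left out of the gene tables. Each gene was read from its probe set of highest mean over the arrays.

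Signals were taken as log2(signal + 16) and compared by linear models in R 4.3.3 with moderated variances that follow the mean level (limma 3.58.1), two-sided and separately for untransduced, virus, vector, tissue and culture-against-tissue sets. To be tested, a gene had to lie at or above an array's median in at least n arrays, n being the size of the set's smallest group. P-values were adjusted over all genes tested by Benjamini and Hochberg, and a call is an adjusted p under 0.05. The number of arrays limits the precision, and the labels call the lines biological replicates.

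The members and lists were chosen with earlier results of these data known. Named genes are Mki67, Top2a, Mcm2, Pcna and E2f1 in every comparison where they were tested, up to 6 called genes of smallest p in each class, called genes of opposite sign to their class, the 2 of smallest p where none was called, and up to 4 called genes of each other list. Others named by role or probe set were chosen after their values were seen. Same-numbered arrays come from the same line or embryo and so are paired, and their deviations from group means correlated at -0.08 to 0.06. Alternatives were other pseudocounts, no filter, quantile or 75th percentile scaling, other choices of probe set, array weights, a line or embryo block, the Gapdh ratio as a covariate, untransduced controls and leaving out each array.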

Additional observations from a re-analysis of the deposited data

How the results depend on the processing

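In null against Olig-expressing lines the count of called genes was 1. The count was 2 without _x_at and _s_at probe sets and with every probe set (with Cdc20, lower), and 2 with array weights (with E2f1, higher). With Olig2 against GFP virus in null lines it was 2, and 1 with a pseudocount of 64, without a filter and with untransduced controls. It was 3 without _x_at and _s_at probe sets (with Mcm3, higher) and under 75th percentile scaling (with Mki67, lower). With every probe set it was 8 (with Mcm3, Rrm1, Ccna2, Cenpa, Kif11 and Top2a higher), and with the Gapdh covariate 0. Null against heterozygous lines with GFP virus had 0, and 1 with every probe set. In spinal cord against forebrain 7 replication and 3 mitosis genes fell without _x_at and _s_at probe sets, and 7 and 4 with every probe set. Leaving out single arrays gave 1 to 3 calls for null against Olig-expressing lines (3 without null line 14), 1 to 2 against wild-type lines, 0 to 1 against heterozygous lines (1 without null line 14), 0 to 3 for Olig2 virus in null lines (0 without the Olig2 array of line 12 or 13 or the GFP array of line 13), 0 to 1 for null against heterozygous lines with GFP virus, 6 to 11 for spinal cord against forebrain and 36 to 38 for neurospheres against tissue. With the line or embryo as a replicate block, E2f1 (-0.84, adjusted p = 0.025) and Tpx2 (0.72, adjusted p = 0.017) kept their calls and no count of called genes among the 39 changed. Signs turned for values near 0 or on another probe set, and beyond the choice of probe set the cause was not tested. Under quantile normalisation these were Pcna against Olig-expressing (0.00) and heterozygous lines (0.01), Mki67 against wild-type lines (-0.01), and Top2a (0.00) and Pcna (-0.01) in heterozygous against wild-type lines. With array weights they were Mki67 (-0.01) against wild-type lines, Pcna (0.02) against heterozygous lines, and Top2a (-0.02), Pcna (-0.03) and E2f1 (-0.01) in heterozygous against wild-type lines. Under 75th percentile scaling they were Pcna against wild-type lines (0.01), Top2a with Olig2 virus in null lines (-0.10), Top2a (-0.04) and Pcna (-0.09) in the interaction, and Mki67 in null against heterozygous lines with GFP virus (0.04). A pseudocount of 64 chose another Tpx2 probe set (-0.01). With the Gapdh covariate Mcm2 gave 0.28 with Olig2 virus in null lines and 0.06 in the interaction, and with untransduced controls Pcna gave 0.00. With every probe set Nusap1 gave 0.54 in heterozygous against wild-type lines and Top2a 0.19 with Olig2 virus in heterozygous lines. On its other probe set, which both of those choices of probe set take unless given otherwise, Mcm2 gave -0.11 with Olig2 virus in heterozygous lines, 0.09 in the interaction (without _x_at and _s_at probe sets only), 0.39 with GFP virus against untransduced cultures and -0.62 for the genotype difference between tissues. Leaving out single arrays turned signs within these ranges. Pcna ran from -0.10 to 0.05 against Olig-expressing, -0.11 to 0.07 against wild-type and -0.18 to 0.12 against heterozygous lines, -0.14 to 0.16 in heterozygous against wild-type lines, -0.15 to 0.18 in the interaction, -0.30 to 0.03 in null against heterozygous lines with GFP virus and -0.03 to 0.20 by genotype in spinal cord. Mki67 ran from -0.03 to 0.08 against wild-type lines, -0.15 to 0.22 with Olig2 virus in heterozygous lines, -0.22 to 0.15 in null against heterozygous lines with GFP virus and -0.03 to 0.14 by genotype in spinal cord. Top2a ran from -0.08 to 0.10 in heterozygous against wild-type lines, -0.10 to 0.13 with Olig2 virus in null and -0.10 to 0.03 in heterozygous lines, and -0.06 to 0.17 in the interaction. Mcm2 ran from -0.28 to 0.65 with Olig2 virus in heterozygous lines, -0.88 to 0.05 in the interaction, -0.44 to 0.02 with GFP virus against untransduced cultures and -0.36 to 0.49 for the genotype difference between tissues, and E2f1 from -0.13 to 0.18 in heterozygous against wild-type lines. Low signals kept 7 of the 39 genes out of the tissue tests, and the 2 arrays of some groups limit every test there.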

Other observations

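Among the 22 neurosphere arrays, the genes that varied most were not the usual markers of division. The highest signal was 4.87-fold the lowest for Ccnb2, 3.93-fold for Mcm2, 3.55-fold for E2f1 and 3.44-fold for Ccne1, against 1.80-fold for Mki67 and 1.70-fold for Pcna. Cenpe, a kinetochore kinesin, had the narrowest range at 1.65-fold. Tyms is left out, since its signals of 81.2 to 310.9 reach below the array medians. These ranges are over single probe sets and mix biological and measurement spread.

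The further genes of the promoter search resembled the members in their sequence words. E2F words lay in 35.9% of 39 further replication promoters and 8.16% of 49 further mitosis promoters, and CHR words in 23.1% and 67.3%. These shares describe letters in the promoter windows and were not tested against expression.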
